A study of Rattus norvegicus with 8 samples.

Results

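A set of 134 probes gave a mean bead signal of at least 10000 on all 8 mRNA arrays, of the 22523 probes on each array. The set was chosen by this threshold on the deposited signals, without use of the stage labels, and it holds the brightest transcripts that the secretory-stage and maturation-stage enamel organs shared. Because the signals themselves chose the probes, their brightness is given here as a description. The array read total RNA from the incisor enamel organs of 4 male Wistar Hannover rats, 4 weeks old, with no treatment, and each rat gave 1 secretory-stage and 1 maturation-stage sample (n = 4 per stage). The enamel organ is a multicellular tissue, dissected here from freeze-dried mandibles along a reference line on the tooth, so each sample holds ameloblasts together with the neighbouring cell layers. In such bulk samples, fewer cells of a type and less RNA per cell cannot be told apart. The stage of each sample was taken from its title, description and tissue label. For maturation replicates 2, 3 and 4 the source label instead gives the secretory stage, but Klk4, a protease of the maturation stage, read 8841 to 12303 on the 4 maturation-stage arrays and 117 to 160 on the 4 secretory-stage arrays.

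Ameloblasts are the epithelial cells that build enamel. In the secretory stage they export a protein matrix of amelogenin, ameloblastin and enamelin. In the maturation stage they degrade and take up that matrix, move calcium and bicarbonate, and in the rat incisor they store iron. Such secreting and transporting cells depend on ribosomes, which are built from a large and a small subunit of ribosomal RNA and ribosomal proteins. The mRNAs of ribosomal proteins and elongation factors belong to one class, in which transcription starts within a run of pyrimidines (C and T), the 5′ terminal oligopyrimidine motif through which their translation responds to growth signals.

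The 134 probes carried 130 array symbols. Their gene IDs led to a current record for 104 probes, of which 98 were protein-coding genes and 6 were pseudogenes, and 30 probes had no current record. For 47 probes the array itself describes the transcript as predicted. Ribosomal proteins were the largest group, with 66 probes, or 37 at named ribosomal protein genes and 29 at 28 loci that the array describes as similar to one. The other 68 probes covered 8 translation factors and related proteins, 8 mitochondrial energy or glycolysis genes, 6 cytoskeleton genes, 6 chaperone or ER-Golgi genes, 6 membrane proteins, 6 connective tissue or secreted proteins, 5 proton pump or lysosome genes, 4 chromatin or RNA binding proteins, 4 iron and redox genes, 3 calcium-binding proteins, 2 haemoglobins, 2 enamel matrix proteins, 2 ubiquitin or polyamine genes and 6 others. At the edge of the threshold, the lowest signal over the 8 arrays was 10123 for Rtraf, 10161 for Rplp1, 10176 for Gdi2 and 10195 for Eef2. Just outside it were a further probe of the Slc25a6 locus at 9964, Ctsl at 9961, Rpl10a at 9944 and Maged1 at 9785. On all 4 maturation-stage arrays 194 probes reached the threshold, and on all 4 secretory-stage arrays 158 did, which leaves 60 and 24 probes that were this bright in 1 stage and not on every array of the other.

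Many ribosomal protein members show the pyrimidine class at their annotated start sites. RefSeq promoter sequences (GRCr8 assembly) were matched for 26 of the 37 ribosomal protein genes with a member, for 6 of the 28 similar loci, and for 45 of the 65 genes of members outside the ribosomal protein group. Of the ribosomal protein promoters, 17 of 26 (65.4%) had a run of at least 6 pyrimidines that included the annotated first base, as had 13 of 25 (52.0%) promoters of ribosomal protein genes without a member. Of the 6 promoters at similar loci, 3 had one. The share was 6 of 47 (12.8%) for promoters of the members outside the ribosomal protein group, 7.24% for all genes on the array and 8.26% for all 33469 promoters. Of the 4 promoters of translation factor members, that of Eef1a1 had such a run, and those of Eef2, Rack1 and Tpt1 had none. Each line below shows 30 bases, 15 before the annotated first base and 15 from it, 5′ to 3′ on the strand of the gene, and capitals mark the pyrimidine run that holds that base. The first group are ribosomal protein genes and Eef1a1, with such a run.
Rpl35 (chr3:43165907-43165936, minus strand): cgCCCCTTCCTCTTTCTCTCgaaccgggcg
Rpl4 (chr8:73566462-73566491, plus strand): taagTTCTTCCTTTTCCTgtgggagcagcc
Rpl10 (chrX:157205835-157205864, plus strand): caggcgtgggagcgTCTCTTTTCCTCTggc
Rpl29 (chr8:115947628-115947657, plus strand): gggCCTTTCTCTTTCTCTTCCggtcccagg
Rps18 (chr20:4933730-4933759, plus strand): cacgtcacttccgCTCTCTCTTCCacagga
Rps21 (chr3:187724023-187724052, plus strand): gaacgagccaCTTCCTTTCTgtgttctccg
Rplp0 (chr12:46718376-46718405, minus strand): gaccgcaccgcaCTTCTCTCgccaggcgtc
Rpl9 (chr14:43247575-43247604, plus strand): gacgaaggacgTTCTCTCTTTgccccatct
Eef1a1 (chr8:88225055-88225084, minus strand): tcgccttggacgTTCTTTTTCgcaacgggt
The second group had no run of that length at the annotated start, and they are shown as the contrast. They are a ribosomal protein, the ribosome scaffold Rack1, both enamel matrix members and 2 members that rose in the maturation stage.
Rpl41 (chr7:1563483-1563512, minus strand): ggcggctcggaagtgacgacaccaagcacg
Rack1 (chr10:33670535-33670564, plus strand): ccttgctctccgagtatttccggttccggc
Amelx (chrX:28648788-28648817, plus strand): acttggaagaaaccatcggatcaagcatcc
Ambn (chr14:19898408-19898437, minus strand): agatacagagagagccccaggaacagtcca
Atp6v0c (chr10:13705828-13705857, minus strand): atgggggcgtggcccatatcatgtgacgcg
S100a11 (chr2:181875117-181875146, plus strand): gggacccgggctgccactcctgtcccagca
An annotated start can lie a few bases from the true one, and a missing run says only that these letters were not at that base. The lines shown are a choice, and direction did not follow the run in all members. Slc25a6 and Sparc rose and had such a run, and Rpl21 and Rpl7a fell and had none. The letters CTTCCG, the core bound by ETS-family factors, were found on either strand between 100 bases before and 50 bases after the start in 13 of 26 ribosomal protein promoters with a member and in 12 of 25 without one. They were found in 0 of the 6 promoters at similar loci, 9 of 47 promoters of members outside the ribosomal protein group (19.1%), 15.5% of promoters of array genes and 11.4% of all promoters, and part of this motif overlaps with pyrimidine runs.

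The stages were compared on normalized log2 signals with limma over all 22523 probes, as maturation minus secretory, and 2 call rules are given. Past both an adjusted p of 0.05 and 1.8-fold, 2 of the 134 members were called higher in the maturation stage and 0 lower. Across the whole array this rule called 7.75% of probes, 4.60% higher and 3.15% lower. With the adjusted p alone, 24 members rose, 54 fell and 56 did not pass, against 26.9% of all probes passing, 12.8% higher and 14.0% lower. The normalized values of the stages did not overlap for 92 members, against 27.7% of all probes. Among the 9156 probes detected on all 8 arrays, 24.1% were higher, 29.9% were lower and 53.2% were without overlap. Without overlap on the deposited signals were 46 members, 31 of them higher and 15 lower in the maturation stage. Over all probes the deposited signals did not overlap for 46.8%, with 44.1% higher and 2.70% lower, and among the probes detected on all arrays 57.2% were higher and 5.47% lower. The median log2 fold change of the members was -0.14, beside -0.01 over all probes and -0.07 over those detected on all 8 arrays. It was 0.02 for the members without ribosomal protein probes. The small number of calls past 1.8-fold is no measure of constancy, since a probe that dropped below 10000 in either stage could not be a member. Of the 60 probes that were bright on all maturation-stage arrays alone, 24 were called higher, and of the 24 bright on all secretory-stage arrays alone, 8 were called lower. The word constitutive therefore describes brightness in both stages here, since 78 of the 134 members differed between the stages at the adjusted p threshold of 0.05. That share is near the one among all probes detected on all 8 arrays, so it is no trait of the members. Without normalization between arrays 30 members rose and 10 fell at this threshold.

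**Figure D1:**
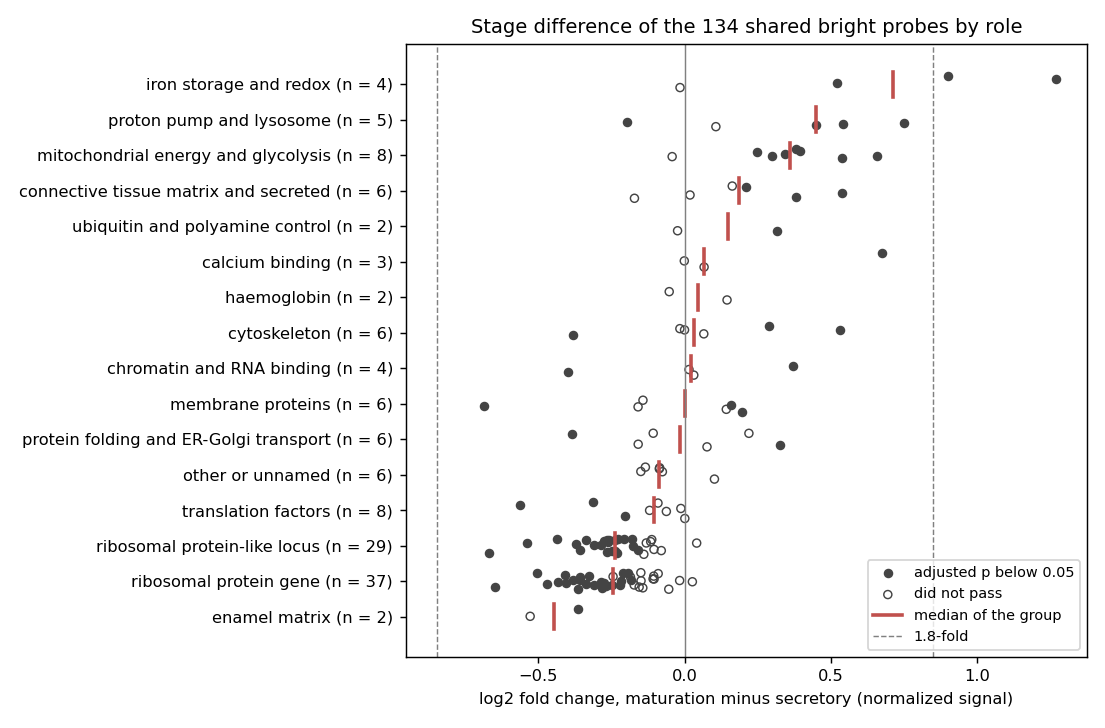
Log2 fold change (maturation minus secretory, normalized signal) of each of the 134 members, grouped by role, with filled points for an adjusted p below 0.05 and a red line at the median of each group. The ribosomal protein groups lie almost wholly below 0, the energy and proton pump groups mostly above it, and 2 probes pass the dashed line of 1.8-fold.

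The ribosomal protein members were mostly lower in the maturation stage, by small amounts. Over all 236 ribosomal protein probes detected on all 8 arrays, the median log2 fold change was larger in size, at -0.46. Of the 66 ribosomal protein members, 45 fell, 0 rose and 21 did not pass, and their log2 fold changes lay between -0.67 and 0.04, with -0.24 as the median. The sign was negative for 64 of the 66. Among the genes, 11 of 21 large-subunit members and 12 of 15 small-subunit members fell, with medians of -0.19 and -0.29. With the rat as a block, Rpl27 (adjusted p = 0.0627), Rps10 (adjusted p = 0.0586) and Rpsa (adjusted p = 0.0817) did not pass. All falls given here are relative to the other probes on the array. The deposited signals of the 66 probes differed by a median log2 value of -0.11, and 9 of them did not overlap between the stages there. Without normalization between arrays, where the median over all probes moved to 0.13, 7 of the 66 fell at the same threshold and 59 were negative, and with background correction that did not use negative controls 27 fell.

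Among members at named large-subunit genes the largest fall was that of Rpl35. Its deposited signals were 14178, 11623, 10620 and 12037 on maturation arrays 1 to 4 and 17206, 15303, 16973 and 16036 on secretory arrays 1 to 4. All 4 maturation-stage values lay under all 4 secretory-stage values, and the log2 fold change was -0.65 (SE 0.065, adjusted p = 5.45e-05). Rpl21 gave 10718, 11029, 10232 and 10810 in the maturation stage and 13630, 12945, 12552 and 12932 in the secretory stage, again without overlap, and fell by 0.50 on the log2 scale (SE 0.067, adjusted p = 0.00034). Rpl10, which sits near the peptidyl transferase centre and is required for subunit joining, gave 18386 to 21828 against 24778 to 26632 and fell by 0.38 (SE 0.058). Rplp1, an acidic protein of the stalk that recruits elongation factors, fell by 0.41 (SE 0.054) at 10161 to 12206 against 11995 to 12806.

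The large-subunit members with the highest signals did not pass. Rplp0, the base of the stalk and often used as a reference gene, gave 30939, 31127, 30214 and 29969 in the maturation stage and 32052, 31222, 32671 and 33342 in the secretory stage. The difference was -0.05 on the log2 scale, with a 95% interval of -0.17 to 0.06. Rpl23a, which helps to form the exit of the peptide tunnel, gave 25134 to 29672 and 26483 to 27815, and its difference was -0.02 (interval -0.14 to 0.10). Rpl29 gave 23889 to 26170 and 25785 to 28540, with a difference of -0.15 (interval -0.28 to -0.02, adjusted p = 0.0932). The median of the group, -0.24, lies inside the interval of Rpl29 and outside those of Rplp0 and Rpl23a. These probes are also the ones nearest to the top of the measured range, a limit described further on.

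Among members at named small-subunit genes, Rps9, a protein of the decoding region, showed the largest fall, from 14806, 14062, 12520 and 14462 in the secretory stage to 13177, 11616, 10334 and 11706 in the maturation stage. The deposited values overlapped at 1 maturation-stage array, but the normalized ones did not, and the log2 fold change was -0.47 (SE 0.059, adjusted p = 0.000237). Rpsa, the laminin-receptor-related protein of the small subunit, fell by 0.18 (SE 0.057, adjusted p = 0.0407, or 0.0817 with the rat as a block), at 20484 to 23084 against 21968 to 24196. Rps14 gave 21421 to 22537 against 22053 to 23237 and a difference of -0.11 (adjusted p = 0.376). The probe named Rps4x gave 21249 to 25325 against 24154 to 25775 and a difference of -0.11 (adjusted p = 0.182), and the current record of its gene ID is a pseudogene of Rps4x. The probe named Rps27a, whose gene ID now leads to a pseudogene, gave -0.24 (adjusted p = 0.0748).

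The 37 ribosomal protein genes with a member were part of 72 with any probe on the array. Taking the brightest probe of each of the 72, 43 fell, 3 rose and 26 did not pass, and the median log2 fold change was -0.27. Among the 35 genes that were not members, 20 fell and 3 rose, with a median of -0.31. The 4 brightest non-members fell too after normalization, with log2 fold changes of -0.33 for Rpl10a, -0.31 for Rpl39, -0.42 for Rpl35a and -0.22 for Rpl8. Their deposited signals overlapped between the stages, and Rpl8 read 8947 to 12950 in the maturation stage against 10329 to 10844. The 3 that rose were Rpl13a (0.66, adjusted p = 0.000976), Rps3 (0.46, adjusted p = 0.0030) and Rplp2 (0.48, adjusted p = 0.038), and the Rplp2 probe read 113 to 167 and was detected on 7 arrays. Rpl31 was the one ribosomal protein gene called past 1.8-fold, with a log2 fold change of -0.90 (SE 0.093) at signals of 492 to 721. The lowest non-members were near background, as Rps28 at 89 to 116, Rpl11 at 96 to 111 and Rpl38 at 97 to 116 were not detected on any array. A ribosome needs each of these proteins, so a dim probe is not evidence of a missing transcript.

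**Figure D2:**
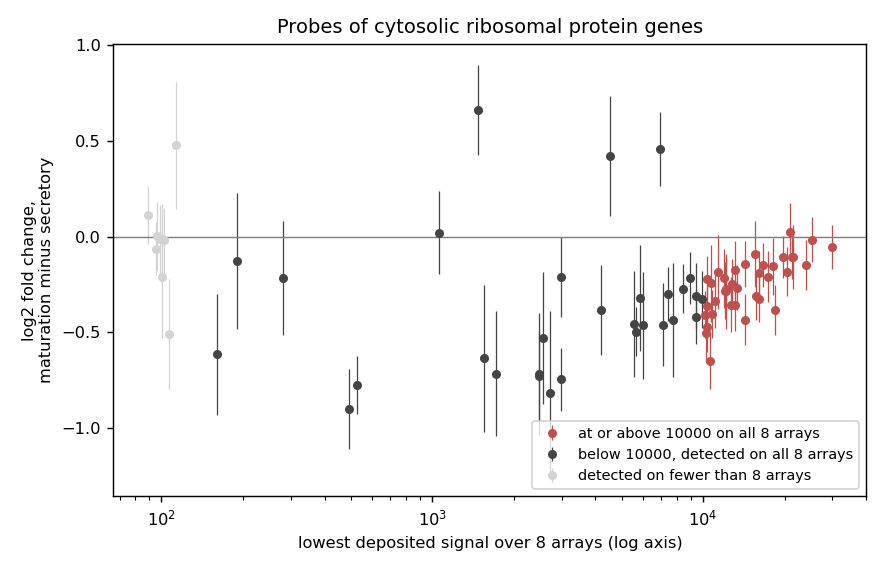
Log2 fold change (maturation minus secretory, with 95% intervals from limma) of each probe of a cytosolic ribosomal protein gene against its lowest deposited signal over 8 arrays on a log axis. Members in red run from -0.65 to 0.03, dimmer detected probes in black spread from -0.90 to 0.66, and probes near background are grey.

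Many of the ribosomal protein members were read at a copy. The 29 probes at similar loci named 21 different proteins, which brings the number of ribosomal proteins with a member at the gene or at a similar locus to 49. Of these 29 probes, 11 had a current record, 4 of them as pseudogenes. Ribosomal protein genes have left many processed copies in mammalian genomes, and a probe designed on a copy can read the transcript of the gene, so levels of such pairs are uncertain. For 18 of the 21 proteins the gene had a probe too, and for 9 of these the gene's own probe was not a member. The probe at a locus similar to S19 gave 15603, 13249, 11728 and 12512 in the maturation stage and 19322, 18566, 17381 and 18350 in the secretory stage. It had the largest fall of the 66, with a log2 fold change of -0.67 (SE 0.065, adjusted p = 4.37e-05), without overlap, while the probe named Rps19 read 100 to 119 and was detected on 1 array. The L31 pseudogene probe read 13790 to 19297 and fell by 0.37, beside 492 to 721 for Rpl31. The L15-like probe read 20819 to 24587 beside 527 to 700 for Rpl15, the L5-like probe 13277 to 17017 beside 190 to 286 for Rpl5, and the S7-like probe 18898 to 24369 beside 2470 to 4504 for Rps7. For Rps3 the gene's probe rose by 0.46, while the S3-like member gave -0.14 (adjusted p = 0.0736).

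Several proteins had more than 1 bright copy. The 5 member probes of L21 and its similar loci all fell, with log2 fold changes of -0.50 to -0.23, although the one at -0.24 (adjusted p = 0.048) passed in 1 of the 8 fits that left out an array. The 3 of L17 fell, with -0.28 to -0.21, of which the probe at -0.25 had an adjusted p of 0.073 with the rat as a block. Of the 4 probes of L7a, 3 fell, and the range was -0.40 to -0.10, but the one at -0.18 had an adjusted p of 0.0685 with the block. Of the 3 probes of S20, 2 fell, in a range of -0.27 to -0.11. For Fau, which encodes a ubiquitin-like protein fused to S30, both similar loci fell, with log2 fold changes of -0.54 and -0.23, the larger with 11795 to 15386 in the maturation stage and 16151 to 17762 in the secretory stage, and the smaller with an adjusted p of 0.0835 with the block. Probes of such a family may read the same transcripts and were not counted as independent evidence.

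Translation factors gave a mixed picture. Of the 8 probes, 3 fell, 0 rose and 5 did not pass, with a median of -0.11. Rack1, the scaffold protein on the head of the small subunit, fell from 14939, 14785, 15538 and 15401 to 13716, 11989, 10352 and 11627, without overlap, with a log2 fold change of -0.56 (SE 0.056, adjusted p = 5.07e-05). The 4 probes of the elongation factor 1 alpha family, which carries aminoacyl-tRNA to the ribosome, did not give one answer. A probe of Eef1a1 at 26071 to 30745 and a probe of Eef1a2l1 at 23063 to 26651 were among the members with the smallest differences, at -0.01 (interval -0.14 to 0.12) and 0.00 (interval -0.11 to 0.11). The other Eef1a1 member, at 12141 to 16605, fell by 0.31 (SE 0.054, adjusted p = 0.00161), and a further Eef1a1 probe was undetected on every array at 104 to 115. Eef2, which moves the ribosome along the mRNA, gave 10491 to 13301 against 10195 to 11253 and a difference of -0.12 (adjusted p = 0.17). Tpt1, translationally controlled tumour protein, gave 25512 to 29876 against 28921 to 30091 and -0.09 (adjusted p = 0.223), and the probe at a similar locus fell by 0.20 (adjusted p = 0.0263, or 0.0539 with the rat as a block). In the wider list of translation factors, 9 of 22 probes fell and 2 rose.

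Mitochondrial energy genes moved the other way. Of the 8 energy members, 7 rose, 0 fell and 1 did not pass, with a median log2 fold change of 0.36, and the 7 were also higher without overlap on the deposited signals, as were 44.1% of all probes. The probe of the Slc25a6 locus, an ADP/ATP carrier of the inner membrane, gave 22711, 21797, 18689 and 23058 in the maturation stage and 12271, 11960, 12548 and 13040 in the secretory stage. It rose by 0.66 (SE 0.060, adjusted p = 3.00e-05). The array describes this locus as predicted and similar to solute carrier family 25, member 5, so the gene that the probe reads is uncertain. The 3 ATP synthase members Atp5f1b, Atp5f1a and Atp5po rose by 0.30, 0.34 and 0.38. Uqcrh of complex III rose by 0.25 (SE 0.053) and Cox6a1 of complex IV by 0.39 (SE 0.069). Ndufa13 of complex I gave 10992 to 13428 against 10633 to 11528 and a difference of -0.04 (adjusted p = 0.706). The probe at a locus similar to Gapdh, the glycolytic dehydrogenase, rose by 0.54 (SE 0.070), from 14156 to 15948 up to 21956 to 24787. In the wider lists, 42 of 88 oxidative phosphorylation probes rose and 4 fell, with a median of 0.22, and 12 of 13 glycolysis probes rose, with a median of 0.69. The energy members were positive in 7 or 8 of 8 under every normalization run.

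Proton pump and lysosome members gave 3 rises, 1 fall and 1 that did not pass. Atp6v0c, the ring subunit through which the V-ATPase moves protons, gave 25720, 24858, 23332 and 25421 in the maturation stage and 13230, 14184, 14482 and 13732 in the secretory stage. The stages were far apart, and the log2 fold change was 0.75 (SE 0.059, adjusted p = 1.18e-05), under the 1.8-fold rule. Atp6v0e1, of the same membrane sector, rose by 0.54 (SE 0.060), at 17031 to 20743 against 11144 to 12730. Atp6v1d, of the cytosolic sector, fell by 0.20 (SE 0.058, adjusted p = 0.0308, or 0.053 with the rat as a block), while its deposited signals overlapped at 10920 to 13511 against 11537 to 12765. The lysosomal protease Ctsb rose by 0.45 (SE 0.067), and Laptm4a gave 0.11 (adjusted p = 0.191).

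Iron and redox members held both calls past 1.8-fold. The probe at a locus similar to ferritin light chain, the subunit that promotes iron core formation, gave 27922, 30860, 28624 and 30762 in the maturation stage and 10341, 11872, 11033 and 11284 in the secretory stage. It rose by 1.27 on the log2 scale (SE 0.078, adjusted p = 2.35e-06). Fth1, the ferritin heavy chain with the ferroxidase site, gave 33855, 32076, 30310 and 31362 against 21503, 21676, 23041 and 22727, and rose by 0.52 (SE 0.050, adjusted p = 4.34e-05). It was the brightest probe on maturation arrays 1, 3 and 4. Txn1, the thiol reductant thioredoxin, gave 29998, 26517, 22227 and 27932 against 13973, 12713, 13465 and 13821, and rose by 0.90 (SE 0.065, adjusted p = 6.34e-06), but by 0.79 with cyclic loess and 0.78 with median scaling, which is under 1.8-fold. Prdx2, a peroxidase that thioredoxin reduces, was among the smallest differences at -0.02 (interval -0.18 to 0.15). In the wider list, 12 of 15 iron storage and antioxidant probes rose and 0 fell, and 7 of them passed 1.8-fold.

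**Figure D3:**
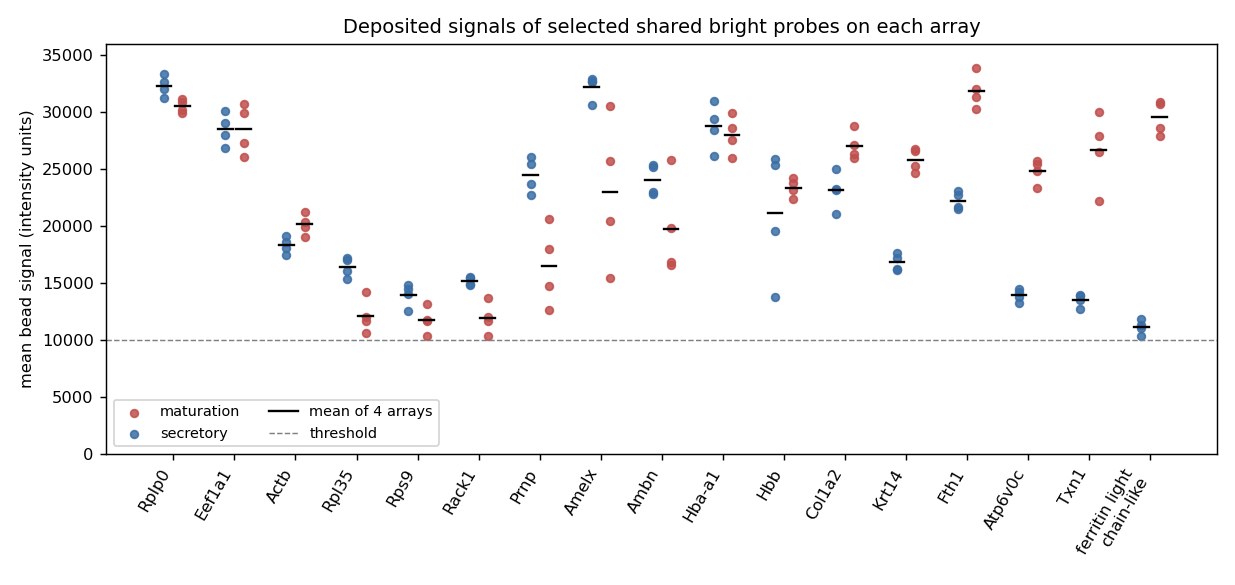
Deposited mean bead signal of selected members on each of the 8 arrays, with secretory samples in blue, maturation samples in red and black lines at the mean of 4 arrays. Rplp0 and Eef1a1 stay between 26071 and 33342 in both stages, Rpl35, Rps9, Rack1 and Prnp are lower in maturation, and Fth1, Atp6v0c, Txn1 and the ferritin light chain-like probe are higher there.

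Cytoskeletal members included the usual reference gene. Actb gave 21254, 20323, 19070 and 19902 in the maturation stage and 17429, 18081, 18604 and 19082 in the secretory stage, with a normalized log2 fold change of 0.00 (interval -0.14 to 0.14). Actg1 rose by 0.29 (SE 0.051). Krt14, a keratin of basal and dental epithelium, gave 25296, 26599, 24674 and 26809 against 17602, 16127, 16256 and 17224 and rose by 0.53 (SE 0.066, adjusted p = 0.000207). Tuba1a fell by 0.38 (SE 0.065), at 14637 to 18670 against 17982 to 21033, while the other alpha tubulin probe gave -0.02 (adjusted p = 0.907). Cfl1, which severs actin filaments, gave 0.07 (adjusted p = 0.474).

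The enamel matrix members were the most variable in the maturation stage. Amelx, amelogenin, gave 30510, 15456, 20445 and 25682 on maturation arrays 1 to 4 and 32636, 30677, 32734 and 32934 on the secretory arrays. The maturation-stage values all lay below the secretory-stage ones, but their spread left the log2 fold change of -0.53 (SE 0.18) at an adjusted p of 0.0555, or 0.0321 with the rat as a block. Without maturation replicate 2 it was -0.33 and without maturation replicate 1 it was -0.68, and in both of these fits it passed. Ambn, ameloblastin, gave 25797, 16566, 16861 and 19846 against 25362, 22965, 22805 and 25161 and fell by 0.36 (SE 0.11, adjusted p = 0.0353), with an overlap at maturation replicate 1. This call passed in 1 of the 8 fits that left out an array, the one without maturation replicate 1, and the values ran from -0.49 to -0.29. Enam, enamelin, which is no member, ordered the maturation arrays in the same way, at 816, 133, 138 and 448 on arrays 1 to 4, against 3551 to 3711 in the secretory stage. The part of this ordering in the results of the other members was not tested, but leaving out maturation replicate 1 gave a median of -0.26 for the ribosomal protein members. Enam and Mmp20 were called lower and Klk4 higher, while Amelx remained above 15000 on every array.

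Calcium-binding and membrane proteins moved one by one. S100a11 gave 25264, 22631, 20389 and 22629 against 13640, 11832, 13223 and 13795, without overlap, and rose by 0.68 (SE 0.058, adjusted p = 1.97e-05). Calb1, the calbindin that buffers calcium in ameloblasts, gave 26037 to 30225 against 26287 to 27363 and a difference of 0.07 (adjusted p = 0.451). Calm2, calmodulin, gave 0.00 (interval -0.14 to 0.14). Prnp, the prion protein, had the largest fall of all members, from 26083, 22707, 23725 and 25429 to 20659, 14736, 12621 and 18006, with a log2 fold change of -0.69 (SE 0.097, adjusted p = 0.000514). Gja1, connexin 43, gave 0.14 (adjusted p = 0.0709), B2m and Cd81 rose by 0.20 (adjusted p = 0.045, or 0.102 with the rat as a block) and 0.16 (adjusted p = 0.0452, or 0.0989 with the block), and Itm2b gave -0.14 (adjusted p = 0.233).

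Chaperones and cargo proteins of the secretory route did not move together. Of the 6 members, 1 rose, 1 fell and 4 did not pass. Ppia, the cyclophilin that isomerises proline bonds, rose by 0.32 (SE 0.058), at 20944 to 27377 against 16457 to 18744. Tmed2, a cargo receptor between ER and Golgi, fell by 0.39 (SE 0.073), at 11620 to 12682 against 12862 to 14591. Hspa5, the main ER chaperone of the Hsp70 family, gave -0.16 (adjusted p = 0.0504) and Calr, the calcium-binding ER lectin, 0.08 (adjusted p = 0.395). Gdi2, which recycles Rab proteins, gave -0.11 (adjusted p = 0.188). Among nuclear proteins, the RNA helicase Ddx5 rose by 0.37 and Rtraf fell by 0.40, while Hmgn2, a nucleosome-binding protein, gave 0.02 (interval -0.12 to 0.15). The antizyme Oaz1, which limits polyamine synthesis, rose by 0.32, and Ubb, polyubiquitin, gave -0.02 (interval -0.15 to 0.10).

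Some members belong to cells other than ameloblasts. Hba-a1, the alpha chain of haemoglobin, gave 29895, 26004, 27522 and 28578 against 26198, 31009, 29381 and 28464, and Hbb, its beta chain, gave 24181, 22373, 23799 and 23147 against 13765, 25899, 25362 and 19531. Neither passed, with differences of -0.05 (adjusted p = 0.70) and 0.15 (adjusted p = 0.65), and the secretory samples spread more than the maturation samples for Hbb. The 4 erythroid marker probes summed to 57983 to 68174 in the maturation stage and 48654 to 79017 in the secretory stage. This sum and those below are of deposited signals, whose array totals were all higher in the maturation stage. Of the connective tissue members, the small leucine-rich proteoglycan Lum rose by 0.54 (SE 0.083, adjusted p = 0.000838), at 18156 to 23268 against 11443 to 14485. The collagen chain Col1a2 rose by 0.21 (SE 0.066, adjusted p = 0.0409), the matrix glycoprotein Sparc by 0.38, and Col3a1 gave 0.16 (adjusted p = 0.137). The call of Col1a2 passed in 1 of the 8 fits that left out an array, the one without secretory replicate 3, with values of 0.17 to 0.25. The 8 fibroblast and mesenchyme probes summed to 58924 to 75780 against 45308 to 51436, with 4 higher and 1 lower after normalization. The lower one was Postn at -0.32, while Dcn gave -0.05 and Vim -0.0009 and did not pass. The 8 leukocyte probes held no member, and 7 of them were higher, with sums of 12726 to 15294 against 3738 to 4531. The 9 osteoblast and odontoblast probes, of which Col1a2 is one, summed to 42791 to 50870 against 29294 to 46845. Of these 9, 2 were higher and 1 lower. Beside Col1a2, the bone sialoprotein Ibsp rose by 1.95, at 512 to 782 against 155 to 194, and the dentin protein Dspp fell by 5.45, at 109 to 120 against 585 to 1425. The osteocalcin probe Bglap read 7528 to 8453 in the maturation stage and 1933, 7485, 12938 and 15422 on secretory arrays 1 to 4, and Sp7 was undetected on every array. The endothelial list held no member, and its 3 probes summed to 2927 to 3430 against 1169 to 1776. Of these Vwf, von Willebrand factor, was called higher (0.88, adjusted p = 0.00456) at 2575 to 3096 against 884 to 1474, Tek gave 0.08 and Cdh5 was undetected on every array. The 6 skeletal muscle probes held no member, none passed, and they summed to 888 to 2007 against 747 to 1097. The part of these cells in the members' differences was not tested.

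The remaining 6 members fell in none of these groups, and none of them passed. Ccni, cyclin I, read 11422 to 15715 and gave -0.09 (adjusted p = 0.537). Both probes of RGD1561181, at 24491 to 29847, gave -0.09 and -0.08. The probe named Card12, an older name of the inflammasome sensor Nlrc4, read 16968 to 22896 and gave -0.15 (adjusted p = 0.164), while the other probe of that symbol read 115 to 163.

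Whether the brightest signals were saturated was not tested. The brightest probe of each array read between 30310 and 33855, which is 46.3% to 51.7% of 65535, the full scale of a 16-bit scanner, and the scanner's own limit is not given in the sources used here. Bead signals scattered with a median coefficient of variation of 23.4% at means of 300 to 1000, and of 18.4%, 18.3%, 17.7% and 18.2% in the bins from 10000 to 15000, to 20000, to 25000 and to 35000. This spread did not shrink at the top, and the signals of single beads were not analysed here. Between 2 and 7 probes per array lay within 10% of the array maximum.

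Between the stages, the maxima did not follow the totals of the arrays. The signals of the maturation-stage arrays summed to 13355073 to 16122665 and those of the secretory-stage arrays to 11881691 to 12046793, while the maxima were 30310 to 33855 and 31222 to 33342. Within the maturation stage, replicate 1 had both the highest total and the highest maximum, and replicate 3 the lowest of both. At rank 1 the maturation signal was 0.989 times the secretory signal, at rank 10 it was 1.02 times, at rank 134 1.14 times and at rank 1000 1.34 times. The members made up 16.4% to 16.7% of the summed signal in the maturation stage and 19.3% to 20.5% in the secretory stage, and the ribosomal protein members 7.46% to 7.79% and 9.82% to 10.6%. A probe's share of the signal is not its share of the mRNA, and the order of brightness between probes is not an order of abundance, since probes differ in how well they bind.

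**Figure D4:**
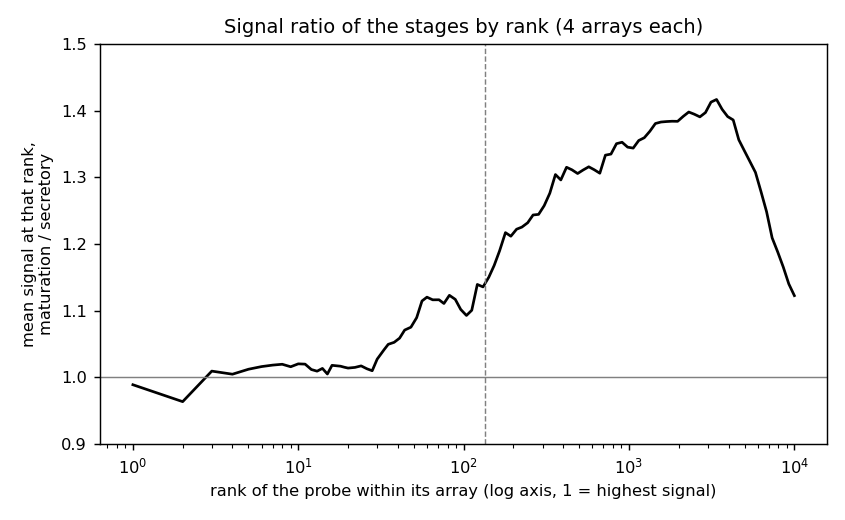
Ratio of the mean deposited signal of the 4 maturation arrays to that of the 4 secretory arrays at each rank within the array, with rank on a log axis and a dashed line at rank 134. The ratio is near 1 for the brightest probes and reaches 1.34 at rank 1000.

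Folds were smaller among brighter probes. Among all probes, 18.6% were called past 1.8-fold at mean signals of 300 to 1000, 17.1% at 1000 to 3000, 15% at 3000 to 10000, 10.8% at 10000 to 20000 and 4.76% at 20000 to 40000. In size, the median log2 fold change was 0.37, 0.34, 0.34, 0.32 and 0.14 in the same bins. Probes that share an array symbol were also set side by side, though 4 of the 7 symbols counted here are predicted loci similar to a gene, whose probes may read different transcripts. For the 7 symbols with a member that passed and a dimmer probe detected on all arrays, 7 of the 8 dimmer probes had the larger difference in size. The threshold bounds the fold of a member but not that of a dimmer probe, so this count cannot tell brightness from the rule. Some gaps were small, as for Rps9 at -0.47 beside -0.53 (interval -0.87 to -0.18). The S20-like locus gave -0.24 beside -0.39, and its dimmer probe did not pass (adjusted p = 0.148). Txn1 gave 0.90 at the member probe and 1.38 and 1.13 at the dimmer ones. The L6-like locus gave -0.26 at 14118 to 20566 and -1.01 at 923 to 1999, and Rpl26 gave -0.22 and -0.46. The Slc25a6 locus was the exception, with 0.66 at the member and 0.54 at the dimmer probe. Actb was left out of this count because its member did not pass, and its 3 probes gave 0.00, -0.09 and 0.12, none of which passed. The 170 ribosomal protein probes detected on all arrays that were not members had a median of -0.58, with 133 lower and 4 higher, and 33 of them were called lower past 1.8-fold. A fall below 10000 on any array itself puts a probe among these 170, so their contrast with the members is tilted by the rule. Whether the folds of the members understate the difference in RNA was not tested.

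**Figure D5:**
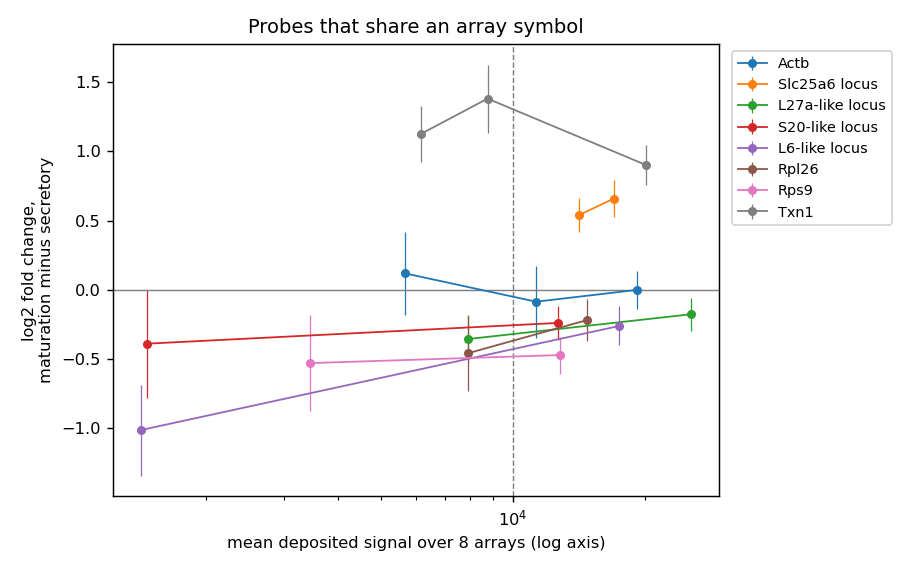
Log2 fold change (maturation minus secretory, with 95% intervals from limma) against mean deposited signal on a log axis for probes that share an array symbol, joined by lines, with the member threshold as a dashed line. Dimmer probes lie farther from 0 for Txn1 (1.38 and 1.13 beside 0.90) and the L6-like locus (-1.01 beside -0.26), and nearer to 0 for the Slc25a6 locus (0.54 beside 0.66).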

How the data were processed

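The authors deposited 1 table for the 8 RatRef-12 v1 BeadChip arrays, with the mean bead signal of each of 22523 probes as an intensity, without background correction or normalization, a detection p-value, a bead standard error and a number of beads. The summarising software and the build of the array annotation are not given in the sources used here.

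Members were probes with a deposited signal of at least 10000 on all 8 arrays. Tests used R 4.3.3 with limma 3.58.1 on signals from its function neqc, which here inferred the negative controls from the detection p-values, set the offset to 16, made the array distributions equal by quantiles and gave log2 values. The fit with lmFit and eBayes took every probe, with Benjamini-Hochberg adjustment. Calls needed an adjusted p below 0.05 and 1.8-fold, and the rule without a fold threshold was added after the data were seen. Intervals are 95% intervals of limma. On simulated arrays with 200 changed probes, 98% were recovered, with 2 false calls among 22523. The planted changes were all larger than 1.8-fold, were added to normalized values and were scored by the 1.8-fold rule. Smaller differences, calls by the adjusted p alone and the normalization were not tested by this simulation. The number of arrays limits the precision. Tables were made with Python 3.11.15 and pandas 2.3.3.

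The members and the gene lists were chosen with earlier results of these data known, and the roles of members outside the ribosomal protein lists were assigned after the values were seen. Named genes were, per list, up to 3 members with the highest lowest-array signal, the 8 largest rises and 8 largest falls, the 4 probes nearest the threshold on each side, the 6 smallest differences, the 5 highest signals, ribosomal protein genes at the extremes of the non-members or called, and genes with an undetected probe beside a member. Others were named after their values were seen, and some items are not reported here. Current symbols came from a RefSeq gene table of GRCr8, which matched 17430 probes.

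The main fit was unpaired. Each rat gave both stages, so replicate numbers pair the samples, and the deviations from the stage means correlated within a rat at 0.129 to 0.234 over 11233 probes, against -0.083 to -0.043 with other rats. Alternatives were a fit that took the rat as a block, other background corrections, normalizations, an offset of 50, a detection filter, the Student test named in the methods, other signal thresholds and each array left out.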

Additional observations from a re-analysis of the deposited data

Results flagged for a closer look

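Within the 4 arrays of a stage, a sample lay apart from the other 3 by Dixon's criterion in 10 of 112 sets of normalized log2 values, against 5.6 expected by chance. Krt14 read 14.48 in maturation replicate 1, against 14.69 to 14.70 in the other maturation samples. Rpl35 read 13.53 in the same sample, against 13.38 to 13.40. Rpl23a read 14.77 in maturation replicate 4, against 14.71, and Fth1 read 14.94 in maturation replicate 2, against 14.98. In secretory replicate 2, Rps14 read 14.55 against 14.46, Rpsa 14.46 against 14.53 to 14.54, and Hspa5 13.72 against 13.67 to 13.68. In secretory replicate 1, Tpt1 read 14.87 against 14.84, and Hmgn2 13.46 against 13.59 to 13.60. Rtraf read 13.65 in secretory replicate 4, against 13.74 to 13.75. Quantile normalization gives probes of the same rank the same value, so the other 3 arrays were tied for several of these.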

How the results depend on the processing

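The 2 calls past 1.8-fold among the members numbered 1 with cyclic loess and 1 with median scaling. Members lower at an adjusted p below 0.05 numbered 35 with normexp without negative controls and 10 without normalization between arrays, and ribosomal protein members lower numbered 27 and 7 there. The median log2 fold change of the members was -0.22 with cyclic loess, -0.24 with median scaling and -0.044 without normalization between arrays, and that of the ribosomal protein members -0.30, -0.31 and -0.11. The last setting moved the median of all probes to 0.13, and relative to the median of all probes the ribosomal protein median lay between -0.30 and -0.20 in every setting run. Without background correction 923 probes were called in all, in place of 1745. A threshold of 20000 left 24 members, one of 8000 gave 183, and one on the mean of the 8 arrays gave 199. A probe of Eef1a2l1 turned from 0.00 to -0.17 with median scaling (adjusted p = 0.037). The causes were not tested. Leaving out each array in turn gave 1705 to 1806 probes called, 2 members called each time, 40 to 50 members lower, 21 to 22 higher, 33 to 40 ribosomal protein members lower, ribosomal protein medians of -0.26 to -0.22 and 134 to 141 members. With the rat as a replicate block, 1750 probes and 2 members were called, 45 members were lower and 22 higher, and 37 ribosomal protein members were lower. Of the 134 members, 12 lost and 1 gained the call with the block, and it changed the side of the threshold of no other member. The calls of Rpsa, B2m, Col1a2, Ambn, Atp6v1d and Cd81 were lost in 11, 12, 10, 9, 10 and 11 of 17 settings, and Amelx passed in 9. Of the 78 members that passed, 60 did so in every fit without an array and 14 in at most 2 of 8, among them Rpl26 and the L21-like probe at -0.24. For probes under the naming rule, 807 values kept their direction and side of the threshold, 47 lost a call, 46 gained one and 1 reversed.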
